A study of Mus musculus with 54 samples.

Results

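Microglia that had taken up alpha-synuclein (aSyn) were compared at 300 and at 150 min of co-culture with unloaded microglia, which covers the late phase of the time course. The comparison rests on 8 of the 54 libraries of the series: 4 donor libraries at 300 min and 4 at 150 min, chosen by their labelled group and paired by the replicate number in their titles. All libraries came from primary microglia of C57BL/6 mice. Cells of a pair of neonatal brains were pooled per flask, grown above an astrocyte layer and shaken off it. Donor cells in both groups had received 1 µM aSyn carrying the dye Atto-488 for 14 h. They were then mixed with acceptor microglia, which had been stained with CellTracer Violet and had received no aSyn, and were separated from them again by flow cytometric sorting at 150 or 300 min. Replicate 1 has passage 3 in the labels, replicate 2 has passage 1, and replicates 3 and 4 have passage 2. Both groups were loaded and co-cultured, so time in co-culture and time since the aSyn exposure cannot be told apart. Acceptors sorted from such co-cultures at 300 min (3 libraries) and at 150 min (4 libraries) and donors at 60 min (3 libraries) are given for comparison. Nothing in the labels says that the replicates came from separate animals, so p-values measure the spread between these samples.

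Microglia are the resident phagocytes of the brain, and aSyn is the protein that aggregates in Parkinson disease. Phagocytes that meet protein aggregates switch on immediate early transcription factors within minutes, followed by cytokine genes, the antioxidant genes driven by NRF2 and, through secreted type I interferon, the interferon-stimulated genes. Transcripts of immediate early genes and cytokines decay quickly once transcription stops. Zyxin and vinculin sit at the contacts between the actin skeleton and the substrate, and both of their genes are targets of serum response factor.

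Levels are given as CPM, counts scaled to library size with TMM factors. Total counts were 11989871 to 15537493 in the 150 min donor libraries and 11406996 to 13878834 in the 300 min donor libraries. The ribosomal RNA precursor Rn45s took 4.17 to 13.4% of counts at 150 min and 5.38 to 15.3% at 300 min, with the highest share of each group in replicate 4, whose sample numbers in the labels belong to a separate run of numbers. All 16 microglia and macrophage markers had counts in all 8 libraries, with a summed level of 5949 to 16930 CPM at 150 min and 5819 to 17139 CPM at 300 min. Summed astrocyte markers lay between 11.9 and 35.5 CPM at 150 min and between 14.1 and 39.4 CPM at 300 min, with 2 to 6 of the 12 markers at 0. Summed neutrophil and lymphocyte markers reached at most 7.25 and 8.71 CPM, with 8 to 12 of 12 at 0. Replicate 4 stood apart in these sums: both of the lowest microglia values were its own, against 14940 to 17139 CPM in the other 6 donor libraries, and so were the highest neutrophil and lymphocyte values. The part of this replicate in the results was not tested beyond the fits that leave it out. Of the 16 microglia markers 3 were higher and none lower in all 4 pairs, beside 11.2% and 10.9% of all genes tested. Aif1 and Cx3cr1 were called higher in a fit of the 8 libraries, in which 1.29% of all genes were. In these sorted pools, fewer cells that express a gene and less RNA per cell cannot be told apart.

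Sequence just upstream of the RefSeq transcription start (build GRCm38.p6) is shown for some genes of the comparison that have an entry and a motif match. The first 3 are genes picked as examples that were lower at 300 min and hold an AP-1 match (TGACTCA or TGAGTCA) in the 250 bases before the start. The share of all lower genes with such a match was not counted. Gclm and Txnrd1 are shown of the NRF2 targets, and Ifit3 of the interferon-stimulated genes. Nfe2l2 and Sqstm1 of the former, and Ifit2, Isg20, Mx1 and Ifi44 of the latter, were searched as well and gave no stretch to show. Capitals mark the motif as read on the strand of the gene, with matches taken from both strands. The antioxidant response element core was searched as TGACNNNGC and the interferon-stimulated response element core as GAAANNGAAA, and a site such as an AP-1 match followed by GC satisfies both of the first motifs.
Zyx: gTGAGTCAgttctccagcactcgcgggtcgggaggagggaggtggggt
Plaur: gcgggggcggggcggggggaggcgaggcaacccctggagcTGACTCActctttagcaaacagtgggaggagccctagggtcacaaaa
Osgin1: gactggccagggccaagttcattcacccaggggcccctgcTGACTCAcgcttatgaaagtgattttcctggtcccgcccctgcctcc
Gclm: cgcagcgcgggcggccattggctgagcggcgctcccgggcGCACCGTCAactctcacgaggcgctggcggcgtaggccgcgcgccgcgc
Txnrd1: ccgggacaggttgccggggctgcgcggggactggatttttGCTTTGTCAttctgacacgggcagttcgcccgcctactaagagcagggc
Ifit3: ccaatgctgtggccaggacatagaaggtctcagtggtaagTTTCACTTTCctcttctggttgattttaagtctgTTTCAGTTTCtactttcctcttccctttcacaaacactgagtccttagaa

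All 6 stretches lie on the plus strand and outside annotated exons. Those of Plaur, Gclm and Ifit3 lie before the first base of the GENCODE gene. Those of Zyx, Osgin1 and Txnrd1 lie inside the gene, whose first bases are 42349630, 119434124 and 82833951. They precede a RefSeq start further in, not the first start of the gene. The Zyx stretch is chr6:42349706-42349753, with its match starting 121 bases before the start. The stretch of Plaur is chr7:24462374-24462460, that of Osgin1 is chr8:119437010-119437096 and that of Gclm is chr3:122245383-122245471. The Txnrd1 stretch is chr10:82859074-82859162. In the Ifit3 stretch, chr19:34583333-34583456, 2 matches start 156 and 122 bases before the start. In windows of 300 bases around the start, an AP-1 match was present in 5.95% of the 27025 genes with an entry, an antioxidant response element core in 14% and an interferon-stimulated response element core in 3.99%. Among the NRF2 targets listed, 11 of the 23 with an entry held the antioxidant core (47.8%), and among the interferon-stimulated genes 16 of 28 held the interferon core (57.1%). An AP-1 match was found for 1 of 22 immediate early genes with an entry (4.55%). These motifs were not confined to the lists named for them. The antioxidant core was in 31.8% of the immediate early genes and 33.3% of the homeostatic microglia genes, but in 0% of the LXR targets. An AP-1 match was in 21.7% of the NRF2 targets and 26.3% of the cytokine and chemokine genes, but in 0% of the LXR targets.

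Between 150 and 300 min, the transcripts of 2 genes fell in donors, Zyx and Adgre5. Zyx encodes zyxin, a focal adhesion protein that binds actin regulators, and Adgre5 encodes CD97, an adhesion G protein-coupled receptor of leukocytes. In edgeR's quasi-likelihood test over all 14 groups with the replicate number as a block, these were the only genes called at an adjusted p under 0.05 among 13169 tested (0.0152%), with none higher. At an unadjusted p under 0.05 there were 845 genes, 500 lower and 345 higher.

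Zyx (ENSMUSG00000029860.16, chr6:42349630-42360213, plus strand of mm10) was at 169, 129, 104.5 and 79.2 CPM at 150 min in replicates 1, 2, 3 and 4. At 300 min it was at 60.8, 52.97, 68.0 and 51.6 CPM in the same order. All 4 later libraries lay below all 4 earlier ones, and replicates 1 and 2 moved most, by -1.47 and -1.28 on the log2 scale against -0.62 in each of the others. The group means were 120 ± 38.3 CPM (SD, n = 4) at 150 min and 58.3 ± 7.60 CPM (SD, n = 4) at 300 min. The fitted log2 fold change was -1.01 with a standard error of 0.13 (edgeR adjusted p = 1.72e-05), a 2.01-fold lower level. The spread of Zyx was wide among the 150 min libraries and narrow among the 300 min libraries. Untreated microglia had 81.1 ± 16.9 CPM (SD, n = 4) and aSyn-treated cells before co-culture 93.3 ± 13.4 CPM (SD, n = 4), so the 300 min donors had the lowest mean of the donor groups.

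The change of Zyx differed between donors and acceptors in the test of the difference itself. In acceptors the level was 82.6, 73.4, 67.1 and 51.4 CPM at 150 min and 70.2, 60.1 and 70.5 CPM at 300 min in replicates 1, 2 and 4. The acceptor change was 0.02 on the log2 scale with a standard error of 0.14. The donor change minus the acceptor change was -1.02 with a standard error of 0.19 (edgeR adjusted p = 0.0384), and Zyx was the only gene called in this test (0.00759% of genes). In a fit of only the 15 libraries of these 4 groups no gene was called, with 306 genes at an unadjusted p under 0.05. None was called by edgeR when any replicate was left out (1.95 to 2.79% of genes at an unadjusted p under 0.05) or without the block (108 genes). DESeq2 called Zyx as well. Zyx overlaps Epha1 and the antisense gene Gm44284 on the opposite strand, and whether the counting used strand is not given in the sources used here. Epha1 was not among the genes tested.

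Adgre5 (ENSMUSG00000002885.14, chr8:83723251-83741326, minus strand) was at 85.5, 68.5, 101 and 67.2 CPM at 150 min and at 40.5, 37.5, 59.3 and 28.6 CPM at 300 min. The groups did not overlap, and each replicate moved by between -0.76 and -1.23. The log2 fold change was -0.97 with a standard error of 0.16 (edgeR adjusted p = 0.0018). The call was lost when replicate 1 or replicate 2 was left out, with Adgre5 at -0.94 and -1.02, and kept without replicate 3 or 4. Zyx was called in each of these fits. In loaded donors Adgre5 was far above untreated microglia at all times. Untreated microglia had 3.04 ± 0.621 CPM (SD, n = 4), aSyn-treated cells before co-culture 81.1 ± 8.25 CPM (SD, n = 4), and donors between 80.5 and 95.8 CPM on average from 0 to 150 min. The 300 min mean of 41.5 ± 12.9 CPM (SD, n = 4) was thus the lowest of the donor groups and still above every untreated library, the highest of which had 3.77 CPM.

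Acceptors carried little Adgre5, and there too it was lower at 300 min. Their levels were 3.71, 4.16, 9.89 and 5.21 CPM at 150 min and 2.57, 1.79 and 2.50 CPM in the 3 libraries at 300 min. The acceptor pairs of replicates 1, 2 and 4 moved by -0.51, -1.15 and -1.01, and replicate 3, the highest at 150 min, had no library at 300 min. The fitted acceptor change of -1.17 with a standard error of 0.23 did not pass in edgeR (adjusted p = 0.0776) and was called by DESeq2. In an edgeR fit of the 7 acceptor libraries it did not pass either (adjusted p = 0.233). The difference from the donor change was 0.20 with a standard error of 0.28 (adjusted p = 1). Adgre5 shares its locus with Ddx39 on the opposite strand, whose own log2 fold change in donors was -0.11 with a standard error of 0.16, and with the miRNA gene Mir1668 on its own strand. The plot of Zyx and Adgre5 by library shows both patterns over the whole time course.

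**Figure D1:**
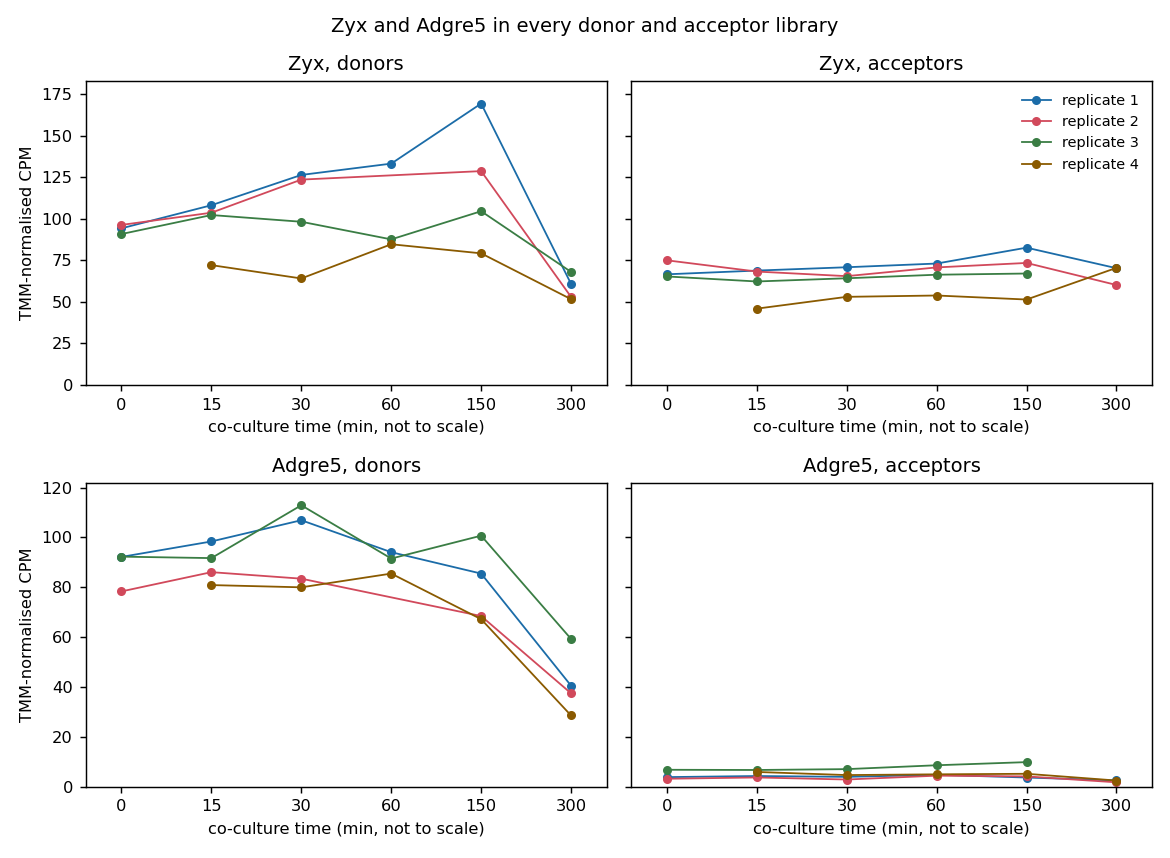
TMM-normalised CPM (y axis) of Zyx (top) and Adgre5 (bottom) in each donor (left) and acceptor (right) library against co-culture time in min (x axis, not to scale), with lines joining libraries of the same replicate number. In donors both genes drop between 150 and 300 min in all 4 replicates, to 51.6 to 68.0 CPM for Zyx and 28.6 to 59.3 CPM for Adgre5.

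How many genes are called depended on which libraries set the spread. In a fit of only the 8 donor libraries, with the block, 336 of 11450 genes passed (2.93%), of which 188 fell (1.64%) and 148 rose (1.29%). The biological coefficient of variation was 10.86% in that fit, on 3 residual degrees of freedom, against 20.97% on 35 in the fit of all groups. Leaving out a replicate from the 8-library fit gave 56 calls without replicate 2, 121 without replicate 1 and 455 without replicate 4. A fit of all donor libraries called 173 genes, and an edgeR fit of donors and acceptors at both late times called 0, with 998 genes at an unadjusted p under 0.05. Without the replicate block no gene was called in either the fit of all groups (1.97% of genes at an unadjusted p under 0.05) or the 8-library fit (2.03%), and the adjusted p of Zyx was 0.0552. In what follows, "fell" and "rose" refer to calls in the 8-library fit with the block, unless the fit of all groups is named. In the fit of all groups with the block, Zyx and Adgre5 were the only calls. List members that fell or rose stand beside 1.64% and 1.29% of all genes.

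**Figure D2:**
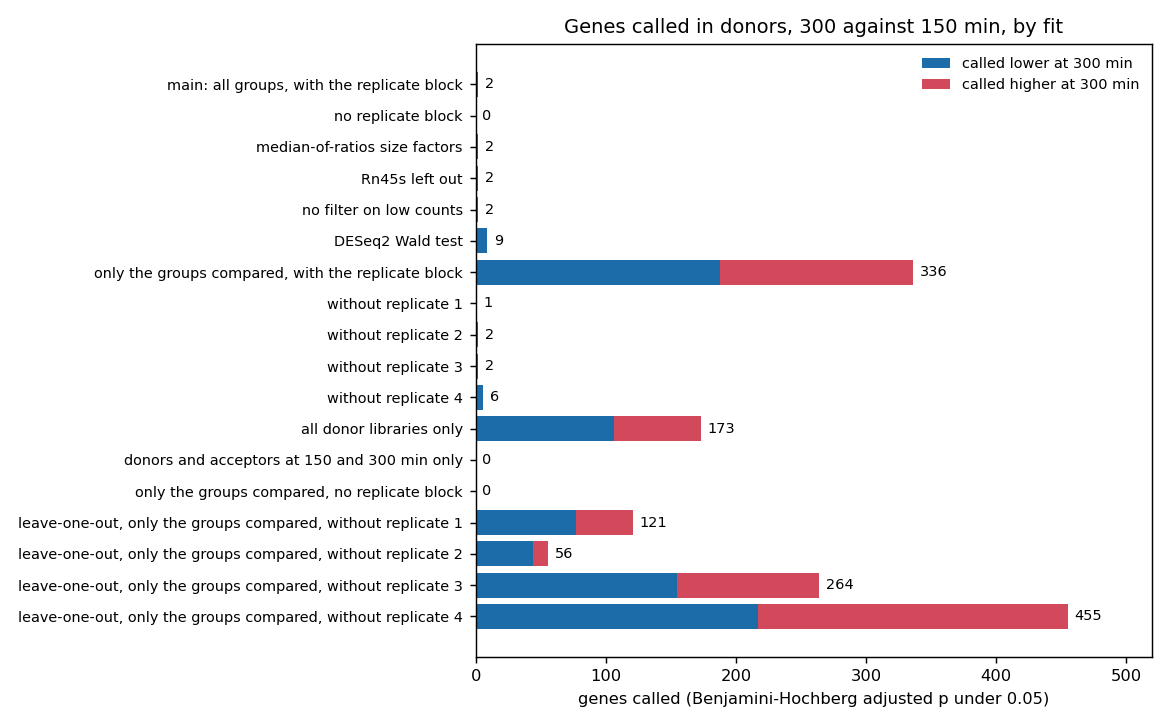
Number of genes called in donors at 300 against 150 min (x axis, adjusted p under 0.05) in the fit of all groups with the block and in each alternative (y axis), split into genes lower (blue) and higher (red) at 300 min. The bars range from 0 genes without the replicate block to 455 genes in the fit of the donor libraries without replicate 4.

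The genes that fell in the 8-library fit did so by a median log2 of -0.48, and the genes that rose by 0.44. A change beyond 2-fold was fitted for 11 of the 188 and 9 of the 148. Groups did not overlap for 32 genes that fell and 12 that rose. Over all 13169 genes they did not overlap for 116 that were lower (0.881%) and 88 that were higher (0.668%). In acceptors, which share no library with the donors but may come from the same co-cultures, 164 of the 188 genes were lower at 300 min as well (87.2%, against 50.7% of all genes), with a median of -0.31. Of the 148 genes that rose in donors, 140 were higher in acceptors (94.6%, against 49.3%), with a median of 0.28. The change between donors and acceptors did not differ beyond the threshold for any gene but Zyx.

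Next by p in the fit of all groups, among genes at 5 CPM or more chosen for being lower in all 4 pairs, came Wee1, Fam129b, Tsc22d3 and Plaur, none of which passed there. Wee1 encodes the kinase that holds CDK1 inactive before mitosis. It was at 11.3, 6.15, 8.73 and 11.5 CPM at 150 min and 7.43, 3.34, 5.16 and 3.06 CPM at 300 min, and the groups overlapped. Its log2 fold change was -0.97 with a standard error of 0.20 (edgeR adjusted p = 0.0761), and in acceptors it was -0.80.

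Tsc22d3 encodes GILZ, a glucocorticoid-induced inhibitor of inflammatory transcription factors. Its level was 52.8, 86.7, 59.5 and 75.2 CPM at 150 min and 40.1, 58.7, 27.8 and 25.5 CPM at 300 min, with replicates 3 and 4 falling further than the others. The log2 fold change was -0.92 with a standard error of 0.20 (edgeR adjusted p = 0.0804). Plaur encodes the urokinase receptor, a surface protein of migrating cells. Its groups did not overlap, with 32.3, 23.3, 32.8 and 41.2 CPM at 150 min and 17.8, 10.5, 21.1 and 17.3 CPM at 300 min. In donors Plaur did not pass in the fit of all groups (edgeR adjusted p = 0.0838) and fell by 0.97 on the log2 scale in the fit of the 8 libraries (standard error 0.12, adjusted p = 0.00162). In acceptors the change was -0.11 with a standard error of 0.24, and the difference between donors and acceptors did not pass (adjusted p = 1).

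Fam129b was at 359, 232.7, 306 and 426 CPM at 150 min and 226.1, 149, 201 and 370 CPM at 300 min. The drop was between -0.60 and -0.67 in replicates 1 to 3 and -0.20 in replicate 4, and the fitted value was -0.51 with a standard error of 0.11 (edgeR adjusted p = 0.0804). DESeq2 called 9 genes, all lower: besides Zyx and Adgre5 these were Wee1, Tsc22d3, Plaur, Fam129b, Klf10, Myo1c and C4a, the last at a mean of 0.348 CPM. All of Wee1, Tsc22d3, Plaur and Fam129b fell in the 8-library fit as well, with adjusted p from 0.00162 to 0.0248.

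No gene rose in the fit of all groups. The 6 genes given here had the smallest p among genes at 5 CPM or more chosen for being higher in all 4 pairs. Hip1, a clathrin adaptor that links endocytic vesicles to actin, went from 62.7, 52.5, 44.6 and 37.9 CPM to 90.4, 89.7, 57.0 and 60.9 CPM (log2 0.59, standard error 0.14, edgeR adjusted p = 0.158). Ppm1k, a mitochondrial phosphatase that activates branched-chain amino acid breakdown, went from 13.1, 8.73, 10.1 and 9.85 CPM to 17.7, 23.0, 17.5 and 20.6 CPM without overlap (log2 0.92, standard error 0.23, adjusted p = 0.158). Inpp4b, a phosphoinositide phosphatase, went from 4.35, 3.81, 2.80 and 7.44 CPM to 15.16, 7.68, 4.36 and 13 CPM (log2 1.14, standard error 0.28, adjusted p = 0.158). The other three were Dgkh, a diacylglycerol kinase, at log2 0.52 with a standard error of 0.13, Xrcc6, which encodes the DNA end-binding protein Ku70, at 0.84 with a standard error of 0.22, and Tbl1xr1, a subunit of nuclear receptor corepressor complexes, at 0.39 with a standard error of 0.11. Of these 6, all but Xrcc6 rose in the 8-library fit (adjusted p 0.00457 to 0.02, and 0.0613 for Xrcc6). The plot of changes in each replicate sets them beside the acceptor pairs.

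**Figure D3:**
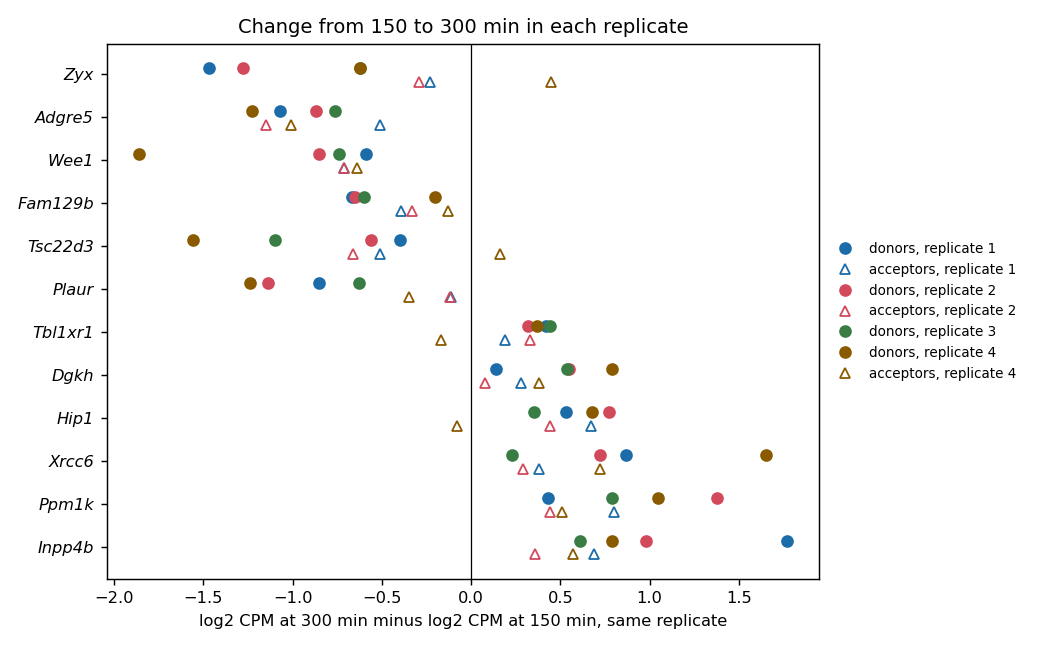
Difference in log2 CPM between 300 and 150 min (x axis) for 12 genes (y axis), as filled circles for the 4 donor pairs and open triangles for the 3 acceptor pairs, coloured by replicate. Zyx and Adgre5 were called in the fit of all groups. The others did not pass there and had the smallest p in their direction among genes at 5 CPM or more with the same sign in all 4 donor pairs. Zyx lies between -1.47 and -0.62 in donors and between -0.29 and 0.45 in acceptors.

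Of the immediate early transcription factors, 8 fell and none rose in the 8-library fit, against 1.64% and 1.29% of all genes. All 30 listed genes were tested in the fit of all groups, with a median log2 fold change of -0.35 beside 0.004 for all genes. In donors 18 of the 30 were lower in all 4 pairs and none was higher in all 4, against 10.9% and 11.2% of all genes tested. The median change was -0.39, -0.31, -0.28 and -0.43 in replicates 1 to 4, and the fitted median without replicate 4 was -0.33. None was called by edgeR in the fit of all groups (2 lower and 0 higher at an unadjusted p under 0.05), and those that fell in the 8-library fit were Fos, Fosl2, Junb, Jund, Atf3, Nr4a1, Ier3 and Hes1. Between 60 and 150 min in donors, a step that shares the 150 min libraries, the list's median was -0.44. In acceptors the median was -0.25, with pair medians of 0.01, -0.01 and -0.42, and 9 of 30 were lower and 4 higher in all 3 pairs (16.3% and 16.2% of all genes).

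Fos, the AP-1 subunit induced within minutes of stimulation, was at 257.4, 207, 146 and 128 CPM at 150 min and 214, 178, 87.7 and 55.1 CPM at 300 min. Replicates 3 and 4 dropped most, and the log2 fold change was -0.59 with a standard error of 0.13 in the 8-library fit (adjusted p = 0.0239) and -0.49 with a standard error of 0.35 in the fit of all groups. Jund, an AP-1 subunit that is less dependent on stimulation, went from 139, 149, 133 and 127 CPM to 107, 125, 121 and 85.4 CPM without overlap. Nr4a1, an orphan nuclear receptor that restrains inflammatory genes in myeloid cells, went from 10.2, 5.84, 12.02 and 7.59 CPM to 4.86, 4.33, 4.09 and 1.25 CPM, also without overlap. Hes1, a repressor downstream of Notch, had a log2 fold change of -0.95 with a standard error of 0.21 in the 8-library fit. Fosl1 had the smallest p of the list in the fit of all groups at a mean of 1.35 CPM. It had 0 counts at 300 min in replicates 1, 2 and 3 and 2.59 CPM in replicate 4, so no fold is given for it. Egr1 did not follow the list: it was at 7.78, 25.8, 11.2 and 2.55 CPM at 150 min and 8.24, 25.4, 16.7 and 1.88 CPM at 300 min, and the sign of its fitted change of 0.12 turned to -0.05 without replicate 3.

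The Kruppel-like factors, zinc finger regulators of which KLF2 and KLF4 dampen inflammatory gene expression in myeloid cells, had a median of -0.22 over 10 tested members. In all 4 pairs 5 were lower and none higher, against 10.9% and 11.2% of all genes. Klf2, Klf4 and Klf10 fell in the 8-library fit, as did 1.64% of all genes. Klf10 was the most even of them, at 37.7, 38.4, 39.3 and 36.9 CPM at 150 min and 24.5, 22.0, 22.1 and 22.2 CPM at 300 min. Its log2 fold change was -0.75 with a standard error of 0.17 in the fit of all groups (edgeR adjusted p = 0.14) and a standard error of 0.10 in the 8-library fit (adjusted p = 0.00207). Klf2 varied most, from 45.3, 25.1, 82.4 and 56.3 CPM to 33.0, 22.7, 21.3 and 8.07 CPM. Its change was -0.46 and -0.14 in replicates 1 and 2 and -1.95 and -2.78 in replicates 3 and 4. The fitted value was -1.39 with a standard error of 0.34 (edgeR adjusted p = 0.158), and in the fits of all groups that left out a replicate it passed without replicate 2. Klf2 had already been lower at 150 min than at 60 min, by -1.51 with a standard error of 0.35 (adjusted p = 0.156), and in acceptors the late change was -0.05 with a standard error of 0.37. Klf4 did not overlap between the groups and had a change of -1.02 with a standard error of 0.31.

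Among 17 MAP kinase phosphatases and Sprouty proteins the median was -0.14, with 4 lower and 1 higher in all 4 pairs. Of all genes, 10.9% were lower and 11.2% higher. Dusp1, the phosphatase that turns off p38 and JNK, was the only one of the list that fell (log2 -0.34, standard error 0.07, adjusted p = 0.0209). The 3 smallest p in the fit of all groups belonged to Dusp5, at a mean of 0.119 CPM and too low for a fold, Spred1 (0.27, standard error 0.13) and Dusp3 (-0.20, standard error 0.10). Of 15 mRNA decay regulators 4 were lower in all 4 pairs and none higher, beside the same shares of all genes. Zfp36, which encodes tristetraprolin and promotes decay of cytokine transcripts, fell by 0.60 on the log2 scale in the 8-library fit (standard error 0.08, adjusted p = 0.00297). The other smallest p of that list belonged to Zc3h12a, the ribonuclease regnase-1 (-0.35, standard error 0.17), and Cnot7, a deadenylase (-0.18, standard error 0.11).

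Inflammatory cytokines and chemokines had a median of -0.24 over 28 tested members of 30. In all 4 pairs 4 were lower and 2 higher, near the shares of all genes (10.9% and 11.2%). The pair medians were -0.33, -0.12, 0.11 and -0.20. Of the 25 members tested in the 8-library fit, Cxcl2, Cxcl3 and Ptgs2 fell, against 1.64% of all genes. Ptgs2 encodes cyclooxygenase 2, and its change was even across replicates of very unequal level: 21.4, 42.5, 24.8 and 731 CPM at 150 min and 12.7, 25.7, 16.5 and 384 CPM at 300 min. It fell by 0.77 on the log2 scale in the 8-library fit (standard error 0.08, adjusted p = 0.000593), whereas the fit of all groups gave -0.78 with a standard error of 0.52 (adjusted p = 0.884). The neutrophil chemokine gene Cxcl3 showed the same replicate at the top, with 3.18, 9.77, 9.37 and 117 CPM at 150 min and 1.91, 3.80, 6.41 and 45.4 CPM at 300 min. Il6 was almost confined to replicate 4, at 40.4 CPM at 150 min and 16.6 CPM at 300 min, and the other 6 libraries had at most 0.492 CPM. Cxcl1 was lower in 3 pairs and higher in replicate 3 (log2 -0.73, standard error 0.47).

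The 22 NF-kB subunits and inhibitors had a median of -0.10, and none passed in either fit. The 3 smallest p belonged to Tnfaip3, which encodes the inhibitor A20 (-0.63, standard error 0.30), Nfkbid (-0.43, standard error 0.21) and Cyld (0.27, standard error 0.16). Cebpb, which encodes a transcription factor of inflammatory and acute phase genes and belongs to no list, had one of the smallest p-values of the 8-library fit. It was at 112, 150, 210 and 212 CPM at 150 min and 53.4, 61.9, 128 and 125 CPM at 300 min, and it fell by 0.95 on the log2 scale (standard error 0.09, adjusted p = 0.000269). The other genes among the 12 of smallest p in that fit, chosen after their values were seen, were Smim3 (-0.88), Pdgfb (-0.96), Pcdhga3 (-3.07), Oaz1-ps (2.11), Ccnd1 (0.80) and Itga5 (-0.82) besides those named above. Pcdhga3 had a mean of 3.85 CPM and went from 0.307 to 0.076 CPM in replicate 2. For this gene the fit of all groups gave -2.96 with a standard error of 1.12 (edgeR adjusted p = 0.601). Its locus overlaps 26 genes on its own strand, with which it may share reads. Ccnd1 encodes cyclin D1 and went from 78.8, 47.8, 49.4 and 14.4 CPM to 129, 107, 73.1 and 24.2 CPM. Oaz1-ps is named as a pseudogene of Oaz1, with which it may share reads. In replicate 4 it was at 0.876 CPM at 150 min and 1.02 CPM at 300 min, and its donor change from 60 to 150 min was -1.98 (standard error 0.73).

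Glucocorticoid-responsive genes had a median of -0.28 over 15 tested members of 16, with 8 lower and none higher in all 4 pairs. Of all genes, 10.9% were lower and 11.2% higher. Of the 14 members tested in the 8-library fit, Tsc22d3, Sgk1, Dusp1, Anxa1 and Rhob fell, against 1.64% of all genes. Sgk1 encodes a kinase that acts on ion channels and FOXO factors, and its change was -0.83, -0.61, -0.47 and -0.09 in replicates 1 to 4 (log2 -0.49, standard error 0.10, adjusted p = 0.0164 in the 8-library fit). The receptor gene itself, Nr3c1, had -0.33 with a standard error of 0.12 in the fit of all groups. Fkbp5, a common reporter of glucocorticoid receptor activity, did not follow, with a change of 0.15 and a standard error of 0.22. Among 22 tested FOXO targets and regulators 5 were lower and 3 higher in all 4 pairs (10.9% and 11.2% of all genes). Besides Sgk1 and Tsc22d3, Gadd45a had the smallest p there (-0.64, standard error 0.28). Fbxo32, a FOXO-driven ubiquitin ligase, was lower in all 4 pairs at 9.96, 6.45, 7.93 and 8.61 CPM against 6.77, 5.47, 5.79 and 5.09 CPM (-0.48, standard error 0.25), after a larger difference of -1.19 with a standard error of 0.26 between 60 and 150 min.

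The targets of NRF2, the factor that controls glutathione synthesis, thioredoxin recycling and haem breakdown, included 8 genes that fell and none that rose in the 8-library fit. Of all genes, 1.64% fell and 1.29% rose in that fit. All 30 listed genes were tested in the fit of all groups, with a median of -0.15. In all 4 pairs 17 were lower and none higher, against 10.9% and 11.2% of all genes, and the pair medians were -0.23, -0.10, -0.13 and -0.13. Without replicate 4 the median was -0.17. None was called by edgeR in the fit of all groups (6 lower and 0 higher at an unadjusted p under 0.05). Those that fell in the 8-library fit were Hmox1, Osgin1, Gclc, Gclm, Txnrd1, Srxn1, Sqstm1 and Nfe2l2, which encodes NRF2 itself. In acceptors the median change was 0.04, with pair medians of 0.07, -0.06 and -0.06. There 9 were lower and 6 higher in all 3 pairs, against 16.3% and 16.2% of all genes. Of the genes that fell in donors, Hmox1, Osgin1, Gclc, Txnrd1, Sqstm1 and Nfe2l2 were lower in all 3 acceptor pairs. Gclm and Srxn1 were not. Between 60 and 150 min the donor median was 0.00.

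Hmox1, haem oxygenase 1, was at 240.7, 171, 399 and 1474 CPM at 150 min and 110, 110, 208 and 1230 CPM at 300 min. Replicate 4 stood far above the others at both times and changed least, by -0.26 against -1.12, -0.63 and -0.94. The log2 fold change was -0.73 with a standard error of 0.11 in the 8-library fit (adjusted p = 0.00433) and -0.74 with a standard error of 0.21 in the fit of all groups (adjusted p = 0.342). Osgin1, an oxidative stress response gene, went from 24.8, 40.7, 35.2 and 52.1 CPM to 11.6, 21.2, 20.7 and 46.1 CPM, and here too replicate 4 changed least. Gclc and Gclm encode the catalytic and modifier subunits of the enzyme that starts glutathione synthesis, and their changes in the 8-library fit were -0.42 with a standard error of 0.09 and -0.47 with a standard error of 0.10. Txnrd1, thioredoxin reductase 1, fell by 0.52 on the log2 scale with a standard error of 0.11. Sqstm1, the autophagy receptor p62 and both an NRF2 target and an activator of NRF2, was even across replicates (-0.34, -0.47, -0.21 and -0.29). The ferritin genes Fth1 and Ftl1, at 29471 and 17837 CPM on average, had changes of -0.07 and 0.05.

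Of the interferon-stimulated genes, 8 rose and none fell in the 8-library fit, against 1.29% and 1.64% of all genes. Of 38 listed genes, all tested, 17 were higher in all 4 pairs and none was lower, against 11.2% and 10.9% of all genes. The median was 0.14, with pair medians of 0.20, 0.27, 0.28 and 0.04, and without replicate 4 it was 0.22. None was called by edgeR in the fit of all groups (0 lower and 0 higher at an unadjusted p under 0.05), and those that rose in the 8-library fit were Mx2, Ifit3, Ifi44, Irf1, Isg20, Mx1, Parp14 and Ifit2. In acceptors the median was 0.42, with pair medians of 0.39, 0.32 and 0.86 in replicates 1, 2 and 4, and 26 of 38 were higher in all 3 pairs with none lower, against 16.2% and 16.3% of all genes. The difference between donors and acceptors passed for none of them.

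Mx2, a dynamin-like antiviral GTPase, went from 33.3, 28.9, 15.3 and 30.0 CPM to 54.9, 63.2, 32.6 and 36.7 CPM. It rose by 0.80 on the log2 scale in the 8-library fit with a standard error of 0.13 (adjusted p = 0.00645), and the fit of all groups gave 0.74 with a standard error of 0.39. Ifit3, an antiviral protein that binds viral RNA complexes, went from 304, 464, 279 and 304 CPM to 499, 808, 465 and 313 CPM. Replicates 1, 2 and 3 gained between 0.71 and 0.80 and replicate 4 only 0.04. Irf1, a transcription factor of both interferon types, went from 112, 123.7, 80.8 and 67.1 CPM to 142, 188, 136 and 69.5 CPM, again with the smallest gain in replicate 4. Parp14, an ADP-ribosyltransferase, rose by 0.38 with a standard error of 0.08. Isg15 and Irf7, at 667 and 485 CPM, had fitted changes of 0.06 and 0.16. The heat map of the 3 lists shows each member.

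**Figure D4:**
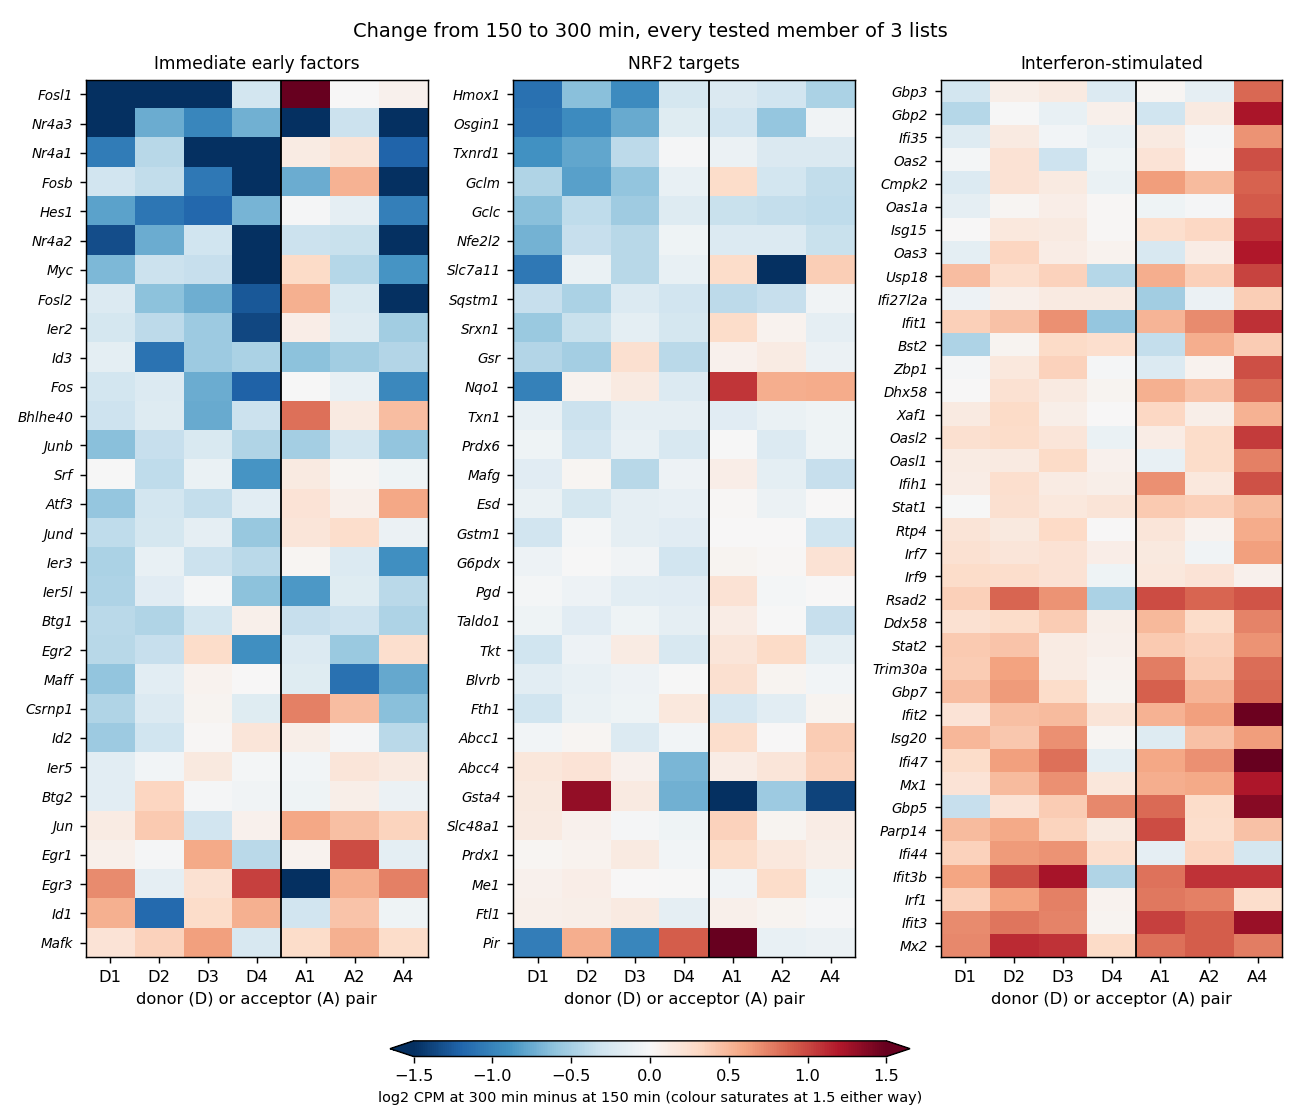
Change in log2 CPM from 150 to 300 min (colour, blue lower and red higher at 300 min) of every tested member of the immediate early, NRF2 target and interferon-stimulated gene lists (rows) in the 4 donor pairs (D1 to D4) and the 3 acceptor pairs (A1, A2 and A4). Of the immediate early factors 18 of 30, and of the NRF2 targets 17 of 30, are blue in all 4 donor pairs, and 17 of 38 interferon-stimulated genes are red in all 4.

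Genes of cholesterol synthesis and uptake, which SREBP2 drives when sterols run low, had a median of 0.19 over 24 tested members of 25. In all 4 pairs 8 were higher and none lower, against 11.2% and 10.9% of all genes. Stard4, a sterol carrier, and Dhcr7, a late enzyme of the pathway, had changes of 0.53 with a standard error of 0.27 and 0.38 with a standard error of 0.18 in the fit of all groups. Among 14 tested LXR targets, which export sterols, the median was -0.02 and Arl4c was the only one that fell (-0.46, standard error 0.07, adjusted p = 0.00454). Abcg1 and Srebf1 had -0.25 and -0.15.

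The TGF-beta pathway, which maintains the resting identity of microglia, had a median of -0.16 over 25 tested members of 27. In all 4 pairs 8 were lower and 1 higher, against 10.9% and 11.2% of all genes. The receptor gene Tgfbr1 fell by 0.57 on the log2 scale in the 8-library fit (standard error 0.09, adjusted p = 0.00653), and Skil, a repressor of SMAD factors, fell by 0.59 (standard error 0.10, adjusted p = 0.00794). Skil was at 76.9, 68.9, 95.7 and 95.1 CPM at 150 min and 48.1, 52.7, 49.7 and 73.8 CPM at 300 min. The related repressor gene Ski had -0.26 with a standard error of 0.09 in the fit of all groups. Tgfbr1 and Skil also fell in acceptors in a fit of their 7 libraries (adjusted p = 0.0329 and 0.0347), in which 54 genes passed (0.463%).

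Among homeostatic microglia genes 18 of 20 were tested, with a median of 0.06, 2 lower and 5 higher in all 4 pairs. Of all genes, 10.9% were lower and 11.2% higher. Cx3cr1, the fractalkine receptor, rose by 0.45 in the 8-library fit (standard error 0.08, adjusted p = 0.0137), and P2ry13, a purine receptor, by 0.61 (standard error 0.14, adjusted p = 0.0322). Mef2a had -0.23 with a standard error of 0.16. Among 20 chemokine and chemoattractant receptors 2 were lower and 5 higher in all 4 pairs (10.9% and 11.2% of all genes). There S1pr1, a sphingosine phosphate receptor, fell by 0.58 (standard error 0.09, adjusted p = 0.00457), while Ccr1 had -0.63 with a standard error of 0.34. Cxcr4, the receptor for CXCL12, was at 83.5, 95.0, 93.3 and 61.7 CPM at 150 min and 58.9, 75.5, 83.2 and 70.6 CPM at 300 min, lower in 3 of 4 pairs (-0.21, standard error 0.22), after a difference of -0.83 with a standard error of 0.23 between 60 and 150 min. Of 24 disease-associated microglia genes 4 were lower and 4 higher in all 4 pairs (10.9% and 11.2% of all genes). Ctsl and Cd9 fell and Lpl rose (by 0.25) in the 8-library fit, and Cd63 had 0.19 with a standard error of 0.18.

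The 41 actin, filopodia and tunnelling nanotube genes had a median of 0.00, with 8 lower and 7 higher in all 4 pairs. Of all genes, 10.9% were lower and 11.2% higher. Vcl, vinculin, dropped most in replicates 1 and 2, as Zyx did: 84.3, 46.6, 29.3 and 14.6 CPM at 150 min and 21.3, 16.8, 23.8 and 14.5 CPM at 300 min. The change was -1.97 and -1.46 in replicates 1 and 2 and -0.30 and -0.01 in replicates 3 and 4 (fit of all groups -1.13, standard error 0.36, and adjusted p = 0.0396 in the 8-library fit). Baiap2, which encodes the filopodium protein IRSp53, fell by 0.48 on the log2 scale (standard error 0.09), and cytoplasmic gamma-actin, Actg1, by 0.33 (standard error 0.06, adjusted p = 0.00794). Rhob fell as well, and Myo10, the motor of filopodium tips, and the formin gene Diaph2 rose by 0.44 and 0.34. The 8-library fit tested 40 genes of this list, and 1.64% of all genes fell and 1.29% rose in it. In the list of 32 glycolysis and hypoxia genes 9 were lower and 1 higher in all 4 pairs, beside the same shares of all genes. The glucose transporter gene Slc2a1 fell by 0.47 (standard error 0.09, adjusted p = 0.0125) and Vegfa by 1.24 (standard error 0.20, adjusted p = 0.00653), while Pfkp had -0.18 with a standard error of 0.10.

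Shares of all genes lower and higher in all 4 pairs were 10.9% and 11.2%, beside which the counts of the next lists stand. In the 8-library fit, 1.64% of all genes fell and 1.29% rose. The 45 lysosome and V-ATPase genes had a median of -0.01 with 8 lower and 5 higher in all 4 pairs, and Manba (-1.16, standard error 0.28) and Ctsl (-0.28, standard error 0.07) fell in the 8-library fit. Atp6v0d1 and Atp6v1h had -0.21 and -0.28 in the fit of all groups. Of 28 autophagy genes 4 were lower and 2 higher in all 4 pairs, with Sqstm1 the only call. Ulk1, the initiating kinase, had 0.41 with a standard error of 0.15, and Atg2a had -0.22. Of 61 tested respiratory chain genes 15 were higher and 1 lower in all 4 pairs at a median of 0.05. Ndufa10 and Atp5l rose by 0.40 and 0.27 and Sdhd fell, while Ndufb3 had 0.34 with a standard error of 0.14. Of 55 cytosolic ribosomal protein genes 15 were higher and 1 lower in all 4 pairs at a median of 0.04. Rplp1 rose by 0.21 (adjusted p = 0.0447), and Rps6 and Rplp2 had 0.34 and 0.22.

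Heat shock genes (30 tested, 5 lower and 3 higher in all 4 pairs) and ER stress genes (32 tested, 5 lower and 2 higher) each had a single call in the 8-library fit. That fit tested 28 and 32 of them, and 2.93% of all genes passed in it, so a single call lies near that share. The calls were the cochaperone gene Dnajb4, which fell by 0.68 (standard error 0.13), and Chac1, a glutathione-degrading enzyme downstream of ATF4, which fell by 0.76 (standard error 0.17). Hsf1 and Ahsa1 had -0.27 and 0.26, and Hsp90b1 and Atf6 had 0.25 and -0.14. Clock genes (17 of 19 tested, 6 lower and 1 higher) included Wee1 and Nfil3, which fell by 0.77 (standard error 0.12, adjusted p = 0.00459), and Cry2 at -0.40. S phase genes (40 tested) had 1 lower and 5 higher, with a fall of Pcna by 0.33 (standard error 0.07, adjusted p = 0.0172) and changes of 0.82 and 0.48 for Cdc6 and Chaf1b. Mitosis genes (36 tested) had 3 lower and 6 higher at a median of 0.14, with Kif11 at 0.80 and Pttg1 at 0.27, neither of which passed. Among 22 p53 targets 1 was lower and 4 higher, and the kinase gene Plk3 fell by 1.18 (standard error 0.21, adjusted p = 0.0114), while Eda2r, at a mean of 0.628 CPM, had 1.56 with a standard error of 0.70. Only 3 of 23 histone genes were tested: H3f3b at -0.23, H3f3a at -0.07 and H1f0 at 0.01.

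Of 24 Parkinson disease genes 23 were tested, with a median of 0.00, none lower and 4 higher in all 4 pairs. Over all genes 10.9% were lower and 11.2% higher. Synj1, which encodes the phosphoinositide phosphatase synaptojanin 1, rose by 0.32 in the 8-library fit (standard error 0.08, adjusted p = 0.0351), and Vps13c and Rab29 had 0.38 and 0.19. Mtmr10, a myotubularin-related gene, had 22.2, 22.2, 24.9 and 29.5 CPM at 150 min and 23.1, 22.3, 19.3 and 14.3 CPM at 300 min, a difference that came from replicates 3 and 4 (-0.33, standard error 0.16). The plot of list medians orders the lists by their fitted median.

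**Figure D5:**
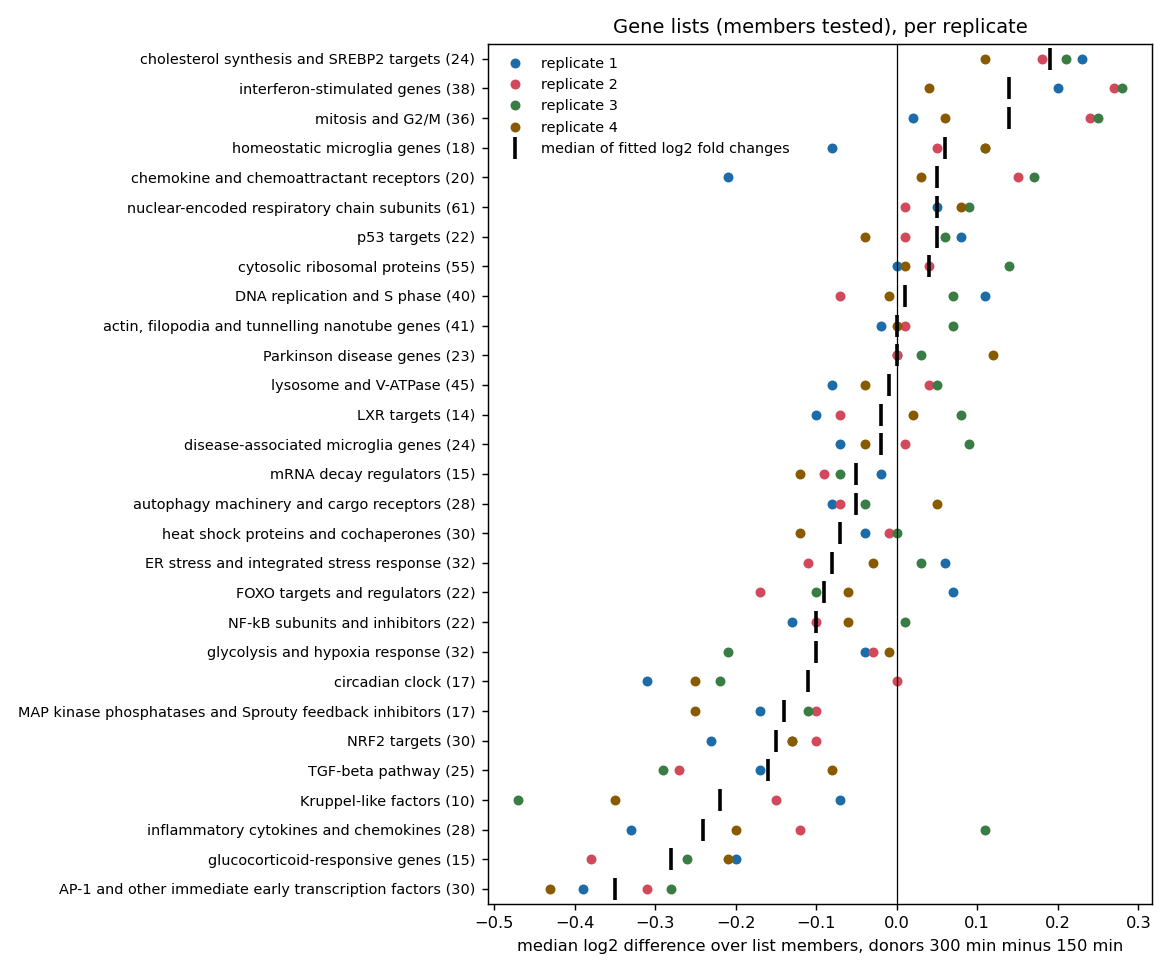
Median over list members of the log2 difference between donors at 300 and at 150 min (x axis) for each gene list with at least 10 tested members (y axis, number tested in brackets). Coloured circles are the 4 replicates and black bars the median of the fitted values, which run from -0.35 for immediate early factors to 0.19 for cholesterol genes.

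For the steps beside this one, 1 gene was called in acceptors between 150 and 300 min (0.00759%) and none in donors between 60 and 150 min (0%). The acceptor call was Srgap2, a regulator of membrane protrusion, which rose from 46.8, 57.2, 53.2 and 46.6 CPM to 89.6, 94.2 and 86.1 CPM (log2 0.83, standard error 0.14, edgeR adjusted p = 0.00754). In donors it went from 58.6, 69.5, 75.95 and 46.2 CPM to 94.6, 98.0, 79.9 and 65.1 CPM (0.43, standard error 0.13). In the donor step from 60 to 150 min edgeR had 887 genes at an unadjusted p under 0.05, DESeq2 called 8 genes, and edgeR without replicate 4 called 96. After Zyx, the smallest p for a difference between donors and acceptors belonged to Stk10 (-0.74, standard error 0.20), Ift140 (1.25, standard error 0.34), Hba-a2 (4.87, standard error 1.36) and Tnfrsf22 (1.40, standard error 0.41), none of which passed. Hba-a2, a haemoglobin gene of red blood cells, was at 16.3 CPM in the replicate 4 acceptors at 150 min and at most 0.266 CPM in the other acceptors at that time.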

How the data were processed

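Libraries of 54 samples were made with the QuantSeq forward kit, which reads the 3′ ends of transcripts (labels' protocols). Raw counts per gene symbol were deposited by the authors, per the file headers. The submitters' processing notes name mm10, STAR, Partek and DESeq2. Versions, the counting annotation and the use of strand are not given in the sources used here. The deposited normalised table was not used.

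Totals ranged from 7807389 to 15537493 counts per library. Same-numbered untreated libraries were summed, which left 52 units in 14 groups. Counts were filtered (filterByExpr by group, minimum count 10), TMM-normalised and fitted with edgeR 4.0.16 (quasi-likelihood F test) with group means and the replicate number as a block. p-values were adjusted over all tested genes by Benjamini-Hochberg, with calls under 0.05. Standard errors are the log2 fold change divided by the root of F. CPM are TMM-scaled, and log2 CPM of single libraries use a prior count of 2. Alternatives used DESeq2 1.42.0, other scaling, no filter, fewer groups, no block, or left out a replicate. The fit was tested on simulated data. Gene positions come from GENCODE M21 on mm10.

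The replicate numbers in the titles pair the libraries: deviations from group means correlated between same-numbered donor libraries at 150 and 300 min at 0.556 to 0.78, and between different numbers at -0.529 to 0.177. Deviations from a mean cancel out within a group. Positive values for same numbers therefore push those for different numbers towards negative values by construction. Without the replicate block 0 genes were called. Replicate 4 carries sample numbers of a separate run, and the labels name no batch.

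The comparison, its rule and the gene lists were chosen with earlier results of these data known. Genes were named if called, moved the same way in all 4 pairs and at a mean of 5 CPM or more (up to 12 a direction, filled to 6 by smallest p), if among the 3 smallest p of a list or the 5 smallest p of the donor-acceptor difference, or by name (Klf2, Cxcr4, Wee1, Mtmr10, Fos, Egr1, Nr4a1, Adgre5, Skil, Fbxo32), with a few genes not reported here. List members called in the 8-library fit, its 12 genes of smallest p and a few genes beside them were added after their values were seen. The lists are described by counts and medians, with no test of a list.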

Additional observations from a re-analysis of the deposited data

Results flagged for a closer look

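A value far from the rest was found in 16 of the sets of 4 values examined (6.69%). Chance alone gives about 1 in 20 for independent sets. These sets share libraries, and some of their genes were chosen by their values, so that rate is only a rough guide. Most of the flagged values came from replicate 4. Among the 4 libraries of a group, that replicate was apart for Hmox1 (1230 CPM in donors at 300 min and 1581 CPM in acceptors at 150 min), Gclc (134 CPM and 184 CPM in these groups) and Il6 (40.4 CPM in donors at 150 min, 16.6 CPM in donors at 300 min and 4.11 CPM in acceptors at 150 min). In the change from 150 to 300 min it was apart for Fam129b (-0.20), Ifit3 (0.04) and Rps6 (0.83). Replicate 4 also had the highest Rn45s share and separate sample numbers, and their part in these values was not tested.

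The other values far from the rest were 464 CPM of Ifit3 in donors at 150 min (replicate 2), 24.5 CPM of Klf10 in donors at 300 min (replicate 1), and the changes of Abcg1 (-0.06, replicate 3), Dnajb4 (-1.15, replicate 3), Myo10 (0.15, replicate 3) and Rab29 (0.32, replicate 2).

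The change of Zyx differed between donors and acceptors by -1.02 on the log2 scale in the test of that difference (edgeR adjusted p = 0.0384), with 4 of 4 donor pairs lower at 300 min and 2 of 3 acceptor pairs. This call was lost in every fit without a replicate.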

How the results depend on the processing

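In donors at 300 against 150 min 2 genes were called. The count was 0 without the replicate block, 9 with DESeq2, 336 with only the 8 libraries and the replicate block, 173 with all donor libraries only, 0 with donors and acceptors at 150 and 300 min only, and 0 with the 8 libraries and no replicate block. Leaving out a replicate gave 1 to 6 calls in the fit of all groups (without replicates 1 and 4) and 56 to 455 in the 8-library fit (without replicates 2 and 4). For the donor-acceptor difference the 1 call became 0 without the replicate block, 0 with only the groups compared and 0 without any replicate. The 1 acceptor call became 0 without the block, 2 with DESeq2, 54 with only the 7 libraries, 0 with the 4 late groups, and 0 without any replicate. Donors at 150 against 60 min had 0 calls, but 8 with DESeq2, 4 with only the groups compared, 56 with all donor libraries and 0 to 96 when a replicate was left out. The fits of all donors, of the 4 late groups, and of the 8 libraries without the block or a replicate were chosen after seeing the data. Scaling by median-of-ratios, leaving out Rn45s (no gene has an mt- symbol) and applying no filter changed none of these counts.

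Zyx kept its sign in all alternatives and missed the threshold without the block (both fits) and with the 4 late groups. Adgre5 did so too, and also without replicate 1 and without replicate 2. Signs turned for Egr1 (-0.05 without replicate 3, -0.06 with the 8 libraries without it, up to 0.23 without another) and H1f0 (-0.00 without a filter, -0.01 with the 8 libraries, -0.01 with all donors, -0.12 and -0.08 without replicates 1 and 2, -0.14 and -0.09 for these with the 8 libraries, up to 0.14 without another). The cause was not tested. Of 300 list medians under alternatives, 7 moved by more than the spread between replicates. Depth limits genes near 1 CPM, such as Fosl1.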
